A study of Gallus gallus with 12 samples.

Results

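Red blood cells of adult hens were compared with HD3 erythroblasts, in chicken, over every gene that the deposited RNA-seq tables list for either cell type. Birds keep the nucleus in their circulating red blood cells, and erythroblasts are the dividing, nucleated precursors that precede these cells in the lineage. As erythroblasts mature they stop dividing, condense their chromatin and lose most of their transcription, while the messages of the oxygen-carrying globins come to dominate. The comparison therefore sets the RNA of a dividing precursor line beside that of a cell at the end of the same lineage. The title of the series concerns the pausing of RNA polymerase and the organization of chromatin in erythrocytes.

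Both groups had 3 replicates and were labelled wild type, so 6 of the 12 samples of the series entered the comparison. The adult red blood cells (aRBC) were primary cells from hens of 28 to 38 weeks, and the labels do not say how many hens were bled or whether blood was pooled. HD3 is a single cultured line of erythroblasts transformed by avian erythroblastosis virus, grown in medium with fetal bovine and chicken serum. The adult cells came straight from the animal, so maturation, culture and transformation cannot be told apart here. Primary red blood cells of embryonic day 10 and primary fibroblasts form the other groups, and their values stand beside the comparison where they bear on it. The labels do not say whether replicates came from separate animals or cultures, so every p-value below measures only the spread between these samples, which may be technical.

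The tables hold 10347 genes for adult red blood cells or erythroblasts, of 13889 in the series. They give Ensembl IDs without gene names. The markers of the labelled cell types were therefore not checked, no role is given to any gene, and genes other than the 4 printed by ID are described by their length, as recovered from the values.

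Levels are FPKM (fragments on a gene, relative to its length and to the size of the library), which the authors then scaled to cell number, called scaled FPKM here. The scaling factor is not stated. Each table stops at an average of 0.3, so a gene missing from a table averaged below 0.3, which is no measurement of 0. The whole reads behind the values could be recovered. Reads on listed genes numbered 9051846, 19081710 and 19379169 in the 3 erythroblast libraries, and 5363928, 9541884 and 2916238 in the 3 adult libraries. The lowest factors that these totals allow bound what the cutoff of 0.3 means before scaling. If replicates of a cell type share a factor, the cutoff is an FPKM no higher than 1.75 for erythroblasts and 118 for adult cells. A listed adult gene had a median of 2855.5, 4188.5 and 1078 reads in the 3 libraries, against 332, 578 and 575 for a listed erythroblast gene. Most listed adult genes therefore had ample reads although their scaled levels were low.

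A library of each cell type stood apart from the other pair. Over the 760 genes in both tables, Spearman's rank correlation was 0.791 between adult replicates 1 and 2, but 0.371 and 0.209 between each of these and replicate 3. Adult replicate 3 was over 2-fold above both other replicates for 106 genes and over 2-fold below both for 175. In erythroblasts, replicates 2 and 3 correlated at 0.997, and replicate 1 at 0.903 and 0.908 with them. Erythroblast replicate 1 was over 2-fold above both others for 136 genes and over 2-fold below both for 102. These correlations are across genes, which are not independent replicates, and adult replicate 3 also had the fewest reads. Values without 1 or both of these libraries are given beside the ratios, the level and length classes and the calls that they move.

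**Figure D1:**
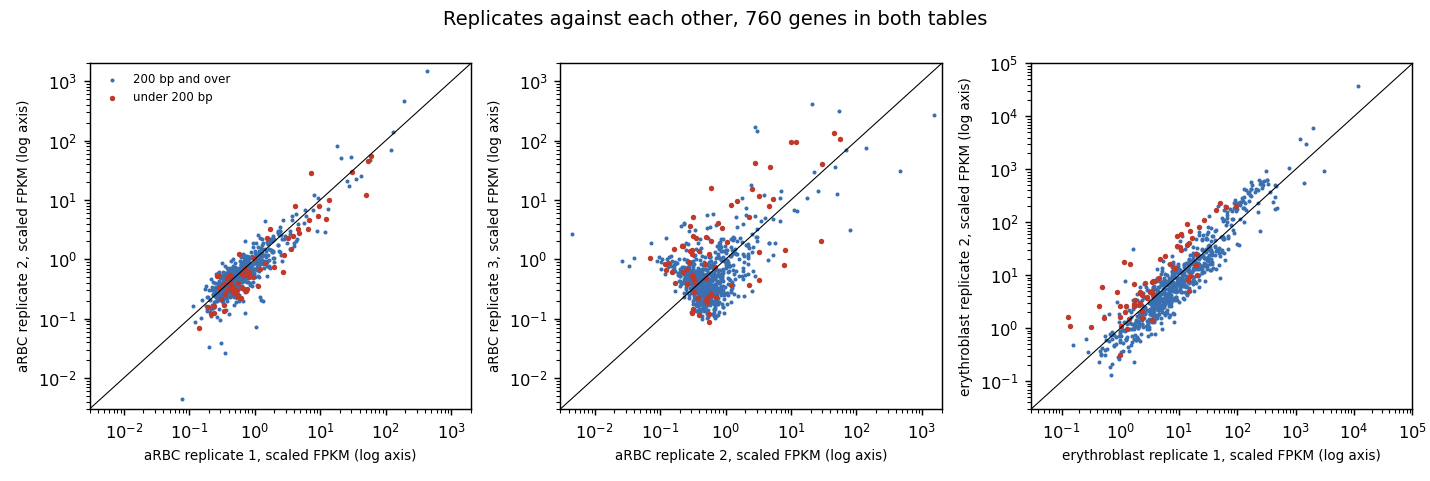
Scaled FPKM of the 760 genes in both tables, 1 replicate against another on log axes, for adult replicates 1 and 2, adult replicates 2 and 3, and erythroblast replicates 1 and 2, with genes under 200 bp in red and the line of equal values. Adult replicates 1 and 2 follow the line (Spearman 0.791), adult replicate 3 scatters widely around it (0.209 with replicate 2), and a gene at 0 in erythroblast replicate 1 has no place on a log axis.

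The adult red blood cells had far fewer genes above the cutoff than the erythroblasts. Of the 10347 genes, 760 (7.35%) were listed for both cell types, 9543 (92.2%) for erythroblasts and not for adult red blood cells, and 44 (0.425%) for adult red blood cells and not for erythroblasts. The 760 shared genes had a median level of 7.18 scaled FPKM in erythroblasts (quartiles 2.94 and 21.9) and of 0.508 in adult red blood cells (quartiles 0.382 and 0.840). Most of the adult list thus sat close to its cutoff. In all, 638 of the 804 listed adult genes (79.4%) were under 1 scaled FPKM and 233 lay between 0.3 and 0.4, whereas 2317 of 10303 listed erythroblast genes (22.5%) were under 1 and 453 lay between 0.3 and 0.4. In these bulk samples, fewer cells that express a gene and less of its RNA per cell cannot be told apart.

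The summed signal of the shared genes was 26.3-fold lower in adult red blood cells. It was 42759, 83060 and 87367 scaled FPKM in the erythroblast libraries and 2012, 3273 and 2835 in the adult libraries, or 71062 ± 24606 (SD, n = 3) against 2707 ± 640 (SD, n = 3). Every adult library was below every erythroblast library, which gave p = 0.1 in a two-sided exact permutation test (0.133 after Benjamini-Hochberg adjustment over 8 such tests), the smallest p that 3 against 3 samples allow. Reads on these genes overlapped, at 2438739, 6659763 and 7045435 in the erythroblast libraries and 5173420, 9347168 and 2823091 in the adult libraries. The ratio thus depends on the authors' unstated scaling factor, which this test does not assess. Genes missing from the other table held 41.9% ± 10.9 (SD, n = 3) of the erythroblast signal and 1.43% ± 0.690 (SD, n = 3) of the adult signal (exact permutation p = 0.1, adjusted 0.133). Nearly all of the summed signal of listed adult genes therefore lay on genes that were also listed in erythroblasts. The 9543 and 44 genes summed here were picked by the cutoff in these same values. The p-value therefore gives the contrast between the shares no support. Signal below the cutoff is left out of these shares. If replicates share a factor, the cutoff may stand for an unscaled FPKM of up to 118 in adult cells and up to 1.75 in erythroblasts. The part of these unequal bounds in the contrast between the shares was not tested.

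The 10 highest genes held 62.0% ± 7.37 (SD, n = 3) of the shared signal in erythroblasts, and the adult share was 66.5% ± 9.52 (SD, n = 3) (exact permutation p = 0.6). Without adult replicate 2 the direction turned, with 61.3% in the other 2 adult libraries. Once the highest gene was left out, the next 10 held 39.4% of the remaining signal in erythroblasts and 56.9% in adult red blood cells, 17.5 percentage points more, and no adult library overlapped the erythroblast libraries (exact permutation p = 0.1). The comparison of these shares thus depended on 1 gene. That gene, of 329 bp, was the highest of both cell types. It stood at 11533, 36827 and 39362 scaled FPKM in erythroblasts and at 432, 1512 and 271 in adult red blood cells, with no overlap between the groups. The highest gene of each library held 38.8% ± 10.2 (SD, n = 3) of the shared signal in erythroblasts. The adult value was 27.5% ± 16.5 (SD, n = 3) (exact permutation p = 0.4). In adult replicate 3 the highest gene was another, of 287 bp, at 418 scaled FPKM. Of the 20 highest genes, 6 were shared between the cell types. Among the 20 highest adult genes 12 were under 500 bp and all 20 were listed in erythroblasts. Among the 20 highest erythroblast genes 7 were under 500 bp and 17 were listed in adult red blood cells.

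Gene by gene, nearly every shared gene was lower in adult red blood cells. The ratio of the erythroblast to the adult mean had a median of 11.6 (quartiles 4.28 and 32.8) and ran from 0.120 to 1217. It was at least 2 for 672 of the 760 genes, at least 10 for 417 (54.9%) and at least 100 for 75 (9.87%), whereas 26 genes had a higher mean in adult red blood cells. The median ratio was 11.5 without adult replicate 3, 10.5 without erythroblast replicate 1 and 10.7 without both, and 17, 38 and 27 genes, respectively, then had the higher adult mean. At least 2-fold lower were 699, 659 and 688 genes in the same order.

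Of the 760 shared genes, 673 had a mean of at least 1 over the 6 libraries and were tested with limma on log2(scaled FPKM + 1). At an adjusted p under 0.05 and a change of at least 2-fold on that scale, 590 genes fell (87.7% of those tested) and 2 rose (0.297%), while 81 were not called. The median log2 difference, adult minus erythroblast, was -2.42. Among the tested genes, 617 (91.7%) had all 3 adult replicates below all 3 erythroblast replicates, and 5 (0.743%) had all 3 above. The filter takes the mean of all 6 libraries, so a gene can pass it through its erythroblast values alone. Of the 26 genes with a higher adult mean, 13 passed. Without the filter, 589 of the 760 genes fell (77.5%) and 2 rose (0.263%). Over all 760, 656 genes had every adult replicate below every erythroblast replicate, and 10 had every one above. A gene missing from a table could not be tested, so these shares describe the shared genes and not the whole transcriptome of either cell.

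**Figure D2:**
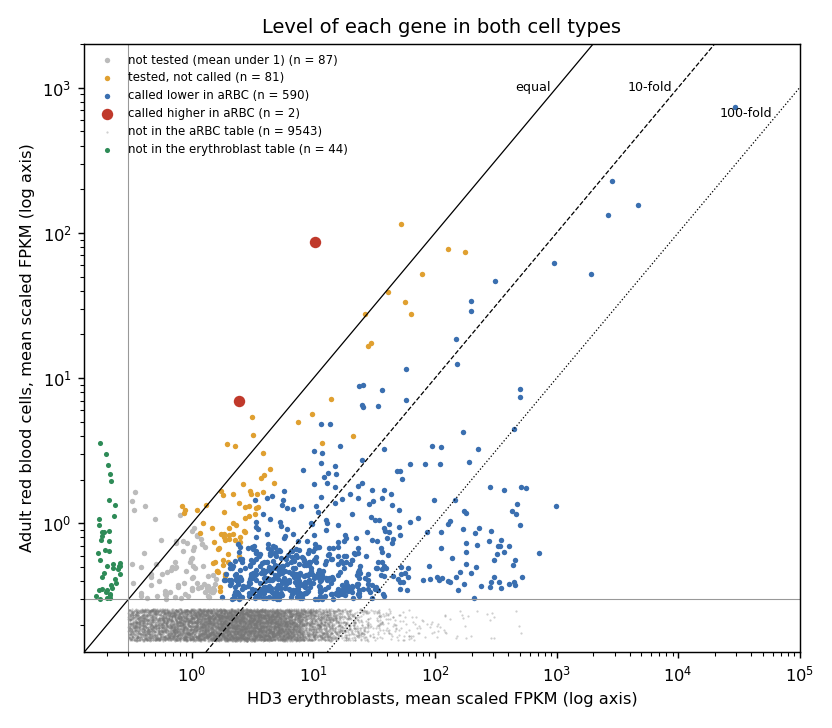
Mean scaled FPKM of the 760 genes in both tables, erythroblasts against adult red blood cells on log axes, each point a gene coloured by its call, with lines of constant ratio. The points lie mostly below the line of equal levels, with 590 genes lower and 2 higher of 673 tested.

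The gene with the largest rise was ENSGALG00000047152, of 745 bp. It was at 9.04, 11.2 and 10.9 scaled FPKM in erythroblasts and at 122, 68.8 and 68.8 in adult red blood cells. All 3 adult replicates were over 6 times the highest erythroblast replicate, and the groups did not overlap. The mean was 8.34-fold higher in adult red blood cells, at 86.6 ± 30.8 (SD, n = 3) against 10.4 ± 1.17 (SD, n = 3), with a log2 change of 2.89 (SE 0.374, limma adjusted p = 9.69e-05). It took 6.07%, 2.10% and 2.43% of the shared signal in the adult libraries and 0.0212%, 0.0135% and 0.0125% in the erythroblast libraries. The gene was far higher again in embryonic red blood cells, at 2542 ± 155 (SD, n = 3), and stood at 47.5 ± 9.23 (SD, n = 3) in fibroblasts. It was called higher under all 16 alternative settings.

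The other gene that rose was ENSGALG00000003693, of 23664 bp, and its call rested on single libraries. It was at 3.44, 1.91 and 1.91 scaled FPKM in erythroblasts and at 4.51, 3.91 and 12.3 in adult red blood cells. Adult replicate 3 was the highest by far, and the groups did not overlap. The mean was 2.86-fold higher in adult red blood cells, with a log2 change of 1.09 (SE 0.392, limma adjusted p = 0.0266). Without adult replicate 3 the log2 change was 0.64 (limma adjusted p = 0.0431) and under the 2-fold threshold. It was also no longer called without erythroblast replicate 2 (0.99, limma adjusted p = 0.0637) or without erythroblast replicate 3 (0.99, limma adjusted p = 0.0671). The gene was not listed in embryonic red blood cells and stood at 39.5 ± 22.3 (SD, n = 3) in fibroblasts.

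The tested gene with the most negative log2 change was ENSGALG00000015917, of 3271 bp. By the ratio of means other genes fell further, up to 1217-fold, since the pseudocount compresses the change of genes with low adult levels. It was at 786, 1077 and 1121 scaled FPKM in erythroblasts and at 1.85, 1.31 and 0.805 in adult red blood cells. Every erythroblast library was far above every adult library. The mean was 752-fold lower in adult red blood cells, at 1.32 ± 0.521 (SD, n = 3) against 994.6 ± 182 (SD, n = 3), with a log2 change of -8.75 (SE 0.399, limma adjusted p = 5.59e-07). The adult values rested on 15015, 17722 and 3031 reads, so counting error was small beside the difference. Embryonic red blood cells had 14.1 ± 5.12 (SD, n = 3), between the erythroblast and adult values, and fibroblasts had 2303 ± 1519 (SD, n = 3).

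Among genes with no adult listing, ENSGALG00000005922, of 1288 bp, had the highest erythroblast level. It was at 280, 628 and 617 scaled FPKM in erythroblasts, lowest in replicate 1, with a mean of 508.6 ± 198 (SD, n = 3). Against the table cutoff its adult mean was at least 1695-fold lower, and against 0.9, the most that 1 unlisted replicate can hold, at least 565-fold lower. It was listed at 5.29 ± 1.61 (SD, n = 3) in embryonic red blood cells and at 658 ± 432 (SD, n = 3) in fibroblasts.

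**Figure D3:**
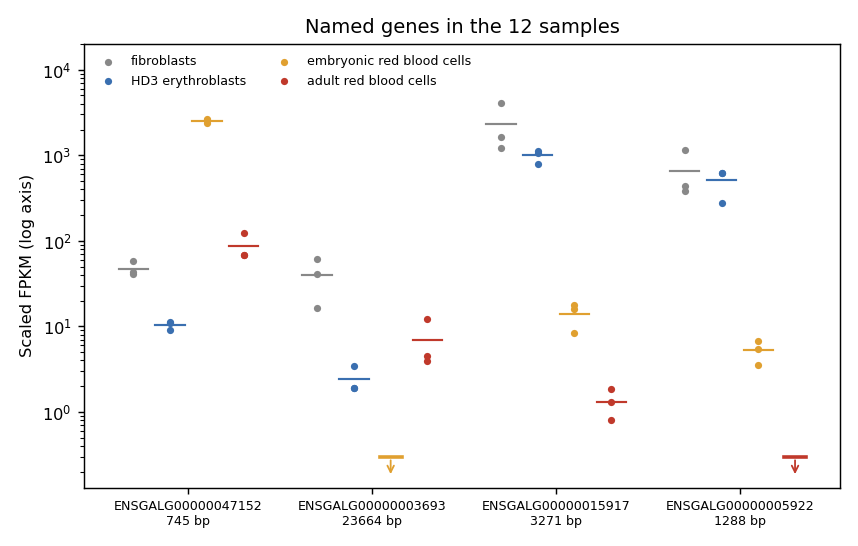
Scaled FPKM on a log axis in each replicate of the 4 cell types for the 4 genes given by ID, with the cutoff of 0.3 marked. ENSGALG00000047152 is higher in adult red blood cells than in erythroblasts and highest in embryonic red blood cells, while ENSGALG00000015917 goes from 994.6 in erythroblasts to 1.32 in adult red blood cells.

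A higher mean in adult red blood cells was rare and mostly found at low levels. The 26 genes with such a mean included 18 with an adult mean under 2 scaled FPKM, and 8 with a difference of at least 2-fold. Of the 26, 10 did not overlap between the groups, and 13 had enough signal to be tested. These 10 were the only ones of all 760 shared genes with every adult replicate above every erythroblast replicate, while 656 had every one below. The 26 were picked by their means in these same values, which favours such non-overlap. In 16 of the 26 the highest adult replicate was replicate 3, the library that stood apart. Of the 26 genes, 11 were also listed in embryonic red blood cells, and 6 were higher there than in adult red blood cells.

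A gene of 597 bp, the fifth highest of the adult cells, was among the 26. It stood at 37.5, 54.4 and 64.6 scaled FPKM in erythroblasts and at 131, 138 and 74.3 in adult red blood cells, and at a mean of 3491 in embryonic red blood cells. The adult values were all above the erythroblast values, but the log2 change of 1.1 had a limma adjusted p of 0.0581 and the gene was not called on the deposited scale. After the centring described below, it was called higher by 3.73 (limma adjusted p = 0.0006). This gene was singled out after its values were seen.

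Altogether 88 shared genes were less than 2-fold lower in adult red blood cells, or higher. Their median level was 1.01 scaled FPKM in erythroblasts and 0.872 in adult red blood cells, and 9 of them reached 10 in adult red blood cells. Adult replicate 3 was the highest adult library for 59 of the 88 (67.0%), against 262 of all 760 shared genes (34.5%). Genes under 200 bp made up 17 of the 88 (19.3%), and 29 (33.0%) were listed in embryonic red blood cells, against 8.82% and 61.6% of all shared genes. The part of adult replicate 3 in the membership of this group was not tested.

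Genes with higher erythroblast levels were more often listed in adult red blood cells, while their adult medians stayed under 1 up to the class of 300 to 1000. Of genes at 0.3 to 1 scaled FPKM in erythroblasts, 51 of 2317 (2.20%) were listed in adult red blood cells, and their adult median was 0.491. The shares were 4.26% at 1 to 3, 7.59% at 3 to 10, 16.5% at 10 to 30 and 38.0% at 30 to 100. At 100 to 300 it was 44 of 69 genes (63.8%) and at 300 to 1000 it was 30 of 35 (85.7%). The adult medians of the listed genes stayed between 0.461 and 0.810 over all these classes, a range that includes only genes above the cutoff. Without adult replicate 3 they went from 0.367 in the lowest class to 0.855 at 30 to 100 and 0.846 at 300 to 1000. Over the 760 genes, Spearman's correlation with the erythroblast libraries was 0.274 to 0.364 for adult replicates 1 and 2. For adult replicate 3 it was -0.0433 to -0.0149.

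The median ratio accordingly grew with the erythroblast level, which is itself the upper term of the ratio. It was 1.28 for erythroblast levels of 0.3 to 1, 11 for 3 to 10, 60.5 for 30 to 100, 244 for 100 to 300 and 516 for 300 to 1000. The 30 shared genes at 300 to 1000 included 25 that were at least 100-fold lower, against 9.87% of all shared genes. All 30 were called lower, against 87.7% of all tested genes (median log2 difference -7.62 against -2.42). The erythroblast level that defines this class enters both the ratio and the call. The fewest reads of any of these 30 genes in an adult library was 128. Their median ratio was 441 without adult replicate 3, 610 without erythroblast replicate 1 and 517 without both.

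The highest class departed from this order. All 5 genes above 1000 scaled FPKM in erythroblasts were listed in adult red blood cells, at a median of 155, and their ratios ran from 12.4 to 39.6 with a median of 30.3. All 5 were called lower, against 87.7% of all tested genes, with a median log2 difference of -5.51. Their adult values differed widely between libraries. The gene of 287 bp was at 26.0, 20.6 and 418 scaled FPKM in the adult libraries, that of 322 bp at 29.2, 53.6 and 315, and that of 205 bp at 190, 467 and 30.3. The gene of 976 bp was at 9.08, 2.98 and 143, so the same library, replicate 3, was highest for 3 of the 5 and lowest for the other two. Without adult replicate 3 the median adult level of the 5 genes was 41.4 and their median ratio 63.7. It was 26.7 without erythroblast replicate 1 and 77.2 without both libraries, each time below that of the 300 to 1000 class.

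**Figure D4:**
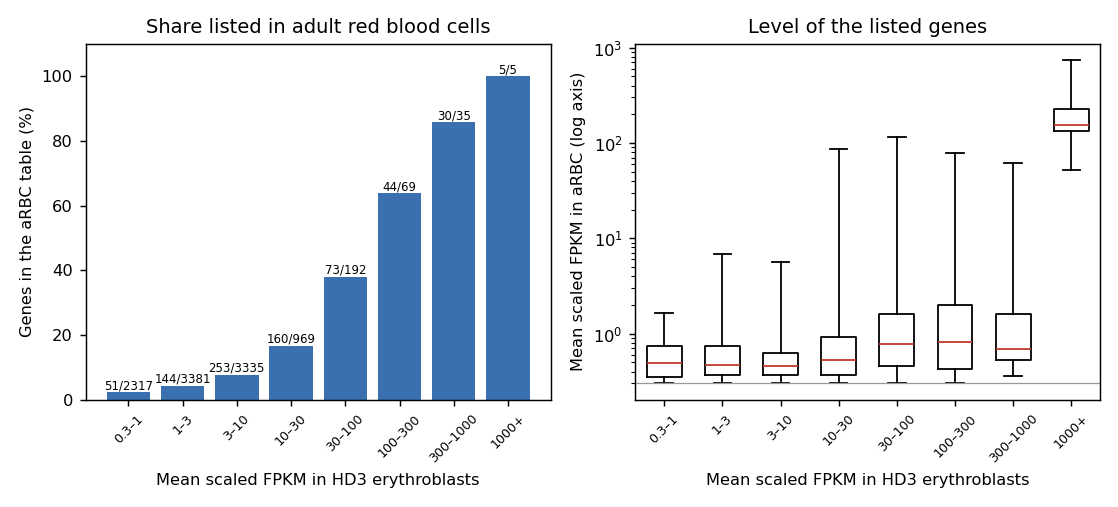
Left, percentage of erythroblast genes that are listed in adult red blood cells, by mean scaled FPKM in erythroblasts, with the genes listed over the genes in each class. Right, mean adult scaled FPKM of the listed genes on a log axis, with boxes for quartiles, red lines for medians and whiskers for the range; the share climbs from 2.20% to 100% while the medians stay under 1 up to the class of 300 to 1000.

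A uniform difference in RNA per cell, or in the authors' factor, would multiply all levels alike. The test was therefore repeated after each library was centred on its median tested gene. The median was subtracted after the log2 step, where the pseudocount makes such a difference move low genes less than high ones. A uniform difference is thus not fully removed, and its part in the calls after centring was not tested. Centring moved the log2 differences by 2.63 and left 352 of 673 genes called, with 175 higher (26.0%) and 177 lower (26.3%). The median log2 difference after centring was 0.21. ENSGALG00000047152 was higher by 5.52 (limma adjusted p = 9.46e-05), ENSGALG00000003693 was higher by 3.72 (limma adjusted p = 0.000226), and ENSGALG00000015917 was at -6.12 (limma adjusted p = 9.46e-05). Libraries scaled to equal sums gave 183 higher and 91 lower genes instead, and voom on the recovered reads gave 244 higher and 110 lower, so the split depends on the scaling.

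The genes lower relative to the median gene were those with high erythroblast levels. The 177 lower genes had a median of 51.2 scaled FPKM in erythroblasts and 0.519 in adult red blood cells, a median ratio of 74.7, and 89.3% of them were listed in embryonic red blood cells. The 175 higher genes had a median of 2.57 in erythroblasts and 0.615 in adult red blood cells, so that before centring they were a median of 4.11-fold lower in adult red blood cells, and 33.7% were listed in embryonic red blood cells. The erythroblast level enters the call itself, and the pseudocount of 1 compresses the change of genes with low levels. The split by erythroblast level is therefore given only as a description. Of the 30 genes at 300 to 1000 in erythroblasts, 28 were lower and 0 higher after centring, also at an unadjusted p under 0.05, and 27 were lower and 1 higher under equal sums and under voom. Of all tested genes, 26.3% were lower after centring, 13.5% under equal sums and 16.3% under voom. Of the 5 genes above 1000, 1 was lower after centring, 1 under equal sums and 0 under limma's voom, and the counts at an unadjusted p under 0.05 were 2, 1 and 0.

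Very short genes together took a larger share of the adult signal, with much of it on a few high genes. Genes under 200 bp held 1.52%, 2.20% and 2.04% of the shared signal in the erythroblast libraries and 15.8%, 7.76% and 24.4% in the adult libraries. The adult shares were all above the erythroblast shares, with adult replicate 3 the highest, and the mean share was 8.34-fold higher in adult red blood cells (16% ± 8.31 against 1.92% ± 0.355, SD, n = 3 each, exact permutation p = 0.1, adjusted 0.133). The adult share was 11.8%, or 6.14-fold higher, without adult replicate 3. Since it is taken within a library, the authors' factor cancels in such a share. The scaling still bears on which genes enter it, since both lists stop at a scaled cutoff. Of the 20 highest adult genes 6 were in this class, at adult means of 77.6, 74.4, 52.5, 39.0, 33.4 and 17.6 scaled FPKM. The adult median of the 67 short genes was 0.810. None of these 6 genes was called on the deposited scale, and only that of 133 bp was called higher after centring.

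The 67 shared genes under 200 bp also had the lowest median ratio of the 5 length classes. Their median ratio was 4.10, with medians of 5.15 scaled FPKM in erythroblasts and 0.810 in adult red blood cells. The median ratio was 24.6 for the 33 genes from 200 to below 500 bp, 46.4 for the 82 up to 1000 bp, 13.7 for the 210 up to 2000 bp and 10.8 for the 368 of 2000 bp or more. In the same order, their erythroblast medians were 43.7, 39.5, 7.57 and 5.48. The ratio grew with the erythroblast level, and its part in this contrast between length classes was not tested. The longest class was the nearest in level to the shortest. Without adult replicate 3 the ratio of the shortest class was 6.42, which was still the lowest of the 5 classes, next to 9.75 for the longest. It was 4.67 against 9.08 without erythroblast replicate 1, and 7.0 against 8.77 without both.

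Of these 67 short genes, 59 were tested with limma, and 40 fell (67.8%, against 87.7% of all tested genes). None rose, and 0 were higher at an unadjusted p under 0.05. The class had a median log2 difference of -1.36 against -2.42 for all tested genes. After centring, 21 were higher (35.6%, against 26.0% of all tested genes) and 2 lower, with a median of 1.27 against 0.21. Equal sums and voom each called 34 of the 59 higher (57.6%, against 27.2% and 36.3% of all tested genes) and 0 lower, and at an unadjusted p under 0.05 they had 38 and 40 higher and 0 lower. The direction of this class therefore turned with the scaling. Centring moves every gene alike after the log2 step, so it leaves the gap to the median of all genes as it was. Without adult replicate 3 and erythroblast replicate 1 together, the gap between the medians on the deposited scale was 0.40 in place of 1.06. The part of these libraries in the difference was not tested further.

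**Figure D5:**
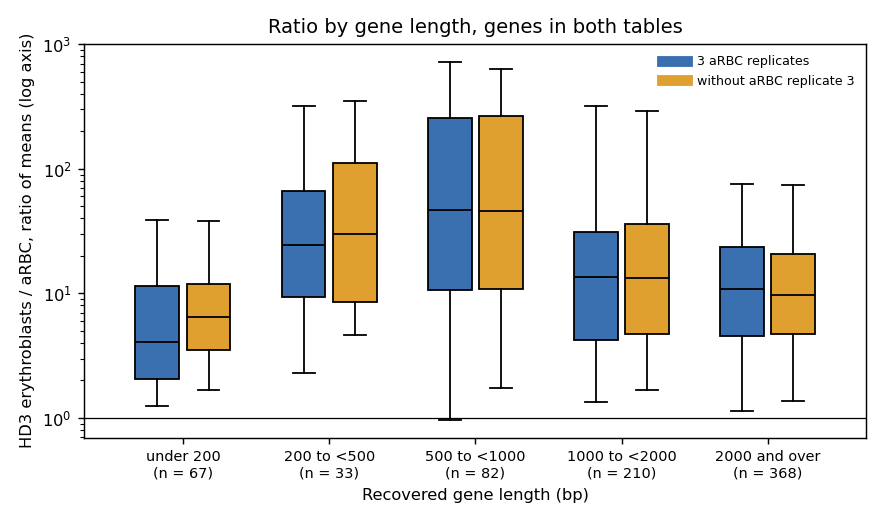
Ratio of the erythroblast to the adult mean on a log axis, by recovered gene length, for all 3 adult replicates and without adult replicate 3, with boxes for quartiles, lines for medians and whiskers for the 5th and 95th percentiles. Genes under 200 bp have the lowest median ratio (4.10, or 6.42 without replicate 3), and those from 500 to below 1000 bp the highest (46.4).

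The 9543 genes listed for erythroblasts and not for adult red blood cells had a median erythroblast level of 2.39 scaled FPKM (quartiles 1.05 and 5.13). Set against the cutoff of 0.3, their adult mean was at least 2-fold lower for 8383 genes (87.8%), at least 10-fold lower for 4040 (42.3%) and at least 100-fold lower for 149 (1.56%). These are lower bounds with no test. Against 0.9, the most a single unlisted replicate can hold, the 10-fold count was 1120. All 3 erythroblast replicates were at 0.9 or more for 6744 genes (70.7%). In fibroblasts 9150 of the 9543 genes (95.9%) were listed, and in embryonic red blood cells 850 (8.91%). The 30 genes of at least 100 scaled FPKM in erythroblasts included 26 that were also listed in embryonic red blood cells, at a median of 1.84.

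The 44 genes listed for adult red blood cells and not for erythroblasts were low. Their median adult level was 0.518 scaled FPKM (quartiles 0.373 and 0.877), the highest was 3.59, and 9 reached 1. The adult mean was at least 2-fold above the cutoff for 19 genes and at least 5-fold above it for 5. The 2-fold count was 14 without adult replicate 3. Replicate 3 was the highest adult library for 23 of the 44, replicate 1 for 15 and replicate 2 for 6, and 4 genes had all 3 replicates at 0.9 or more. Of the 44, 13 were listed in embryonic red blood cells, 19 in fibroblasts and 15 in neither.

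The genes at the head of the 44 differed in how evenly their replicates were spread. A gene of 775 bp had the highest mean, from values of 7.29, 0.466 and 3.01 scaled FPKM. A gene of 2993 bp stood at 4.01, 3.30 and 1.72, with a mean of 3.01 ± 1.17 (SD, n = 3), and a gene of 2057 bp at 3.61, 2.23 and 1.72. All of these genes were above the cutoff in every adult library. The mean of the first was carried by replicates 1 and 3, with replicate 2 far lower at 0.466, while the others were spread more evenly. These genes were singled out after their values were seen.

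Embryonic red blood cells were set beside both groups for the shared genes. Both red blood cell comparisons share the same erythroblast libraries, so their ratios are not independent. Of the 760 genes, 468 were also listed in embryonic red blood cells, where the median was 0.917 scaled FPKM, against 12.7 for the erythroblasts and 0.551 for the adult cells. The order of the means was erythroblast, embryonic, adult for 310 of the 468. For 140 the order was erythroblast, adult, embryonic, with the adult at or above the embryonic mean, while 13 had their highest mean in the embryonic cells and 5 in the adult cells. The other 292 shared genes had no embryonic listing and were low, at medians of 3.0 in erythroblasts and 0.45 in adult red blood cells. These orders are of means across tables that the authors scaled by factors of their own, and no test was made of them.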

How the data were processed

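The authors deposited, per cell type, FPKM per gene and replicate with their average, scaled to cell number according to the name of the deposited table. Per the submitters' processing notes, STAR 2.7.2b and featureCounts were used with build GRCg6a. Per the labels' protocols, stranded libraries were made from 1 µg of TRIzol RNA after removal of ribosomal RNA. Tables were joined on gene ID. Whole reads and gene lengths were recovered from the steps of the values, and lengths are lower estimates. The deposited FPKM were put on a log2 scale with a pseudocount of 1, which understates changes of low genes, and tested with limma 3.58.1 (R 4.3.3, mean-variance trend, two-sided, Benjamini-Hochberg). Single values per library were tested with two-sided exact permutation tests (scipy 1.17.1). The limma and recovery steps were tested on simulated data. By ID are named the 2 called, non-overlapping genes with the largest log2 change, the called one with the smallest, and the highest gene listed for erythroblasts but not adult cells. The genes compared, the rule and the classes were chosen with earlier results of these data known, and the length and level classes after values were seen. The RefSeq table used here carries an Ensembl ID for 0 of its 25635 genes.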

Additional observations from a re-analysis of the deposited data

How the results depend on the processing

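Scaling set the split of calls. On the deposited scale 592 genes were called (2 higher, 590 lower). The counts were 352 after median centring (175, 177), 274 with equal sums (183, 91) and 354 with voom on recovered reads (244, 110). By gene, without regard to direction, 281, 193 and 274 of these were among the 592. Such overlaps exceed the 177, 91 and 110 lower genes, even with the 2 higher genes of the deposited scale added. They therefore include many genes lower on the deposited scale and higher under the other scaling. A minimum mean of 5 tested 321 genes and left 306 (1, 305), or 158 (85, 73) after centring. By gene, 82 of these 158 were among the 352, so the centred calls also depended on which genes were tested. Leaving out each replicate gave 565 to 601 calls (1 to 2 higher, 563 to 599 lower) and 322 to 356 after centring (156 to 181, 166 to 177). Without adult replicate 3 and erythroblast replicate 1 together, chosen after seeing the data, 584 (2, 582) and 342 (168, 174) were called, and ENSGALG00000003693 was not (0.84, limma adjusted p = 0.000134). Replicate numbers did not pair the samples (correlations of deviations -0.0299, 0.0138 and 0.0630); with them as a replicate block, 596 were called (2, 594), or 358 after centring. The ratio of summed signal was 23.2 to 31.5 with a replicate left out. The adult minus erythroblast share of the 10 highest genes was 4.50 percentage points, -0.710 to 8.62 with a replicate left out, and 17.5 without the highest gene (exact permutation p = 0.1). The 4040 genes at least 10-fold lower became 1120 against 0.9 and 3796 to 4142 with a replicate left out. The other pseudocounts, no filter and no trend kept the total of calls within 1.5 times. The scaled cutoff limits the adult list, since it stands for an unscaled FPKM of up to 118 if the adult replicates share a factor.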
